A study of Mus musculus with 8 samples.

Results

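The 32 genes described here encode parts of tight junctions, adherens junctions, desmosomes and gap junctions, and they were followed in TTE3 cells, a mouse testicular Sertoli cell line. They were named as a list, and every probe set whose platform annotation gave 1 of these genes was taken. This gave 69 of the 22626 probe sets that were not controls, for 30 of the 32 genes. Afdn, the nectin-binding scaffold afadin, and Cgn, the tight junction protein cingulin, had no probe set under their names and were not analysed here.

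TTE3 cells were derived from mice whose transgene encodes an SV40 large T-antigen that loses its function at 39 °C, called the nonpermissive temperature. Affymetrix Mouse Expression Array 430A arrays measured total RNA at 0, 6, 12 and 24 h of culture at 39 °C. Each time had 2 samples, which makes 8 arrays. All groups are the same line with the same transgene, so time, temperature and T-antigen state cannot be told apart in comparisons with 0 h. In RNA from whole cultures, a change in the number of cells that express a gene and a change in RNA per cell cannot be told apart either.

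Of the 30 junction genes measured, 14 had a probe set bright enough to be tested and 16 stayed near background, among them all 6 claudins and 4 of 5 desmosome genes. Of the 14 tested genes, 9 changed over the 24 h on their brightest probe set, beside 42.1% of all tested genes taken the same way. By probe set, 15 of 28 changed, beside 40.1% of all tested probe sets. Counted by any of their probe sets 10 genes changed, but no share over all genes was computed in that way. N-cadherin (Cdh2) fell 1.64-fold by 24 h. Plakoglobin (Jup) and the tight junction receptor F11r were 2.21-fold and 1.48-fold higher at 24 h than at 0 h. Connexin 26 (Gjb2) was higher too, but it was bright enough to be tested only through its later samples. At 6 h F11r, Gjc1 and Nectin2 were called lower than at 0 h on their brightest probe sets. These are 3 of 14 tested genes, beside 9.38% of all tested genes, and the Gjc1 and Nectin2 calls ended without 0 h sample 1. Cxadr was called lower at 6 h on 1449949_a_at and 1452391_at but not on its brightest probe set.

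As background, tight junctions seal the space between neighbouring cells through claudins, occludin and JAM proteins held by scaffolds such as ZO-1. Adherens junctions join cells through cadherins and nectins that catenins and afadin link to actin, desmosomes join them through desmosomal cadherins linked to intermediate filaments, and gap junctions are channels made of connexins. In the testis, Sertoli cells join each other by all these contacts, and the tight junctions between them form most of the blood-testis barrier, for which claudin 11 is needed in mice. N-cadherin is the classical cadherin of Sertoli cells, connexin 43 their main connexin, and nectin-2 on Sertoli cells pairs with nectin-3 on spermatids.

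Marker genes of several cell types were looked up. Of all 12393 named genes on the array, 7707 were tested by their brightest probe set. Reaching the limit is thus common, and the counts below do not by themselves show the identity of the cells. Of 16 Sertoli marker genes with a probe set, 8 were bright enough to be tested (Clu, Kitl, Gata4, Nr5a1, Inhbb, Sox9, Wt1 and Inha). Amh, which is made by immature Sertoli cells, lay between 3.5 and 13.8 signal units, and Fshr, the follicle-stimulating hormone receptor, between 9.9 and 63.5. The summed signal of the Sertoli markers was 4220.4 and 4508 units at 0 h, 4658.3 and 5700.6 at 6 h, 4941.4 and 5665.7 at 12 h, and 6723.4 and 7405.9 at 24 h. Clu was the brightest of them, with means of 1365.7 units at 0 h and 3763.95 at 24 h. At 24 h Clu and Inhbb were called higher on their brightest probe sets, and the other 6 tested Sertoli markers were not called. None of 9 endothelial markers (summed signal 158.9 to 274.9) and none of 7 germ cell markers (178.8 to 232.6) reached the limit for testing. On the list of 9 stratified epithelial markers Krt18, Krt8 and Grhl2 reached this limit. Krt5 (21.1 to 98.9 units), Krt14, Krt15, Trp63 and Sfn did not. The sum of this list went from 2915 and 2924.1 units at 0 h to 3796.2 and 3905.3 at 12 h. Its values for 6 h were 3141.5 and 3824.3, and those for 24 h were 3040 and 3218.9. Krt18 made up most of the sum, with means of 2578.7 units at 0 h and 3381.8 at 12 h. The sum thus mainly gives the level of Krt18, and no stratified epithelial identity was read from it. Of the peritubular myoid list 3 of 6 genes passed (summed signal 502.8 to 733.8), and of the Leydig list Star passed out of 4 genes. Of the macrophage and blood list 3 of 6 passed, and it summed to 542.4 and 627.7 units at 0 h, 501.2 and 582 at 6 h, 514.7 and 608.5 at 12 h, and 645.3 and 667.7 at 24 h. By limma, Cd68, a lysosomal protein of macrophages, was higher at 24 h (log2 change 0.59 ± 0.18, adjusted p = 0.0306). The other tested genes of this list, Csf1r and Cd14, had negative log2 changes at 24 h that were not called. These were -0.38 ± 0.20 and -0.46 ± 0.23 on the tested Csf1r probe sets and -0.13 ± 0.23 for Cd14. The Leydig sum was 96.8 and 157.9 units at 0 h and 248 and 326.1 at 24 h. Star, the only tested gene of that list, had means of 104.55 units at 0 h and 258.55 at 24 h on its brightest probe set. The part of the changing marker genes in the results on junction genes was not tested.

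Signal is given in the deposited intensity units, and a probe set was tested when its mean over the 8 arrays, taken on the log2 scale, was at or above the 40th percentile, about 74.04 units. The 16 genes below that limit were described by their range over all their probe sets and arrays, and no level of theirs could be ordered. The classical cadherins other than N-cadherin were dim: Cdh1 (E-cadherin) lay between 2.9 and 26.9 units, Cdh3 (P-cadherin) between 4.9 and 41, and Cdh11 (a cadherin of mesenchymal cells) between 1.5 and 29.5. The 6 claudins, measured by 12 probe sets, lay between 0.6 and 85.7 units. Cldn11, the claudin of the blood-testis barrier, had 14.9 and 18 units at 0 h, 19.7 and 22.9 at 6 h, 4.1 and 22.5 at 12 h, and 5.5 and 9.5 at 24 h. The 2 samples at 12 h alone spanned most of this range. Cldn5, a claudin of endothelium that Sertoli cells can also express, lay between 13.3 and 76.7 units and Cldn1 between 0.6 and 85.7. Cldn3, Cldn4 and Cldn7, claudins of many epithelia, reached at most 42.1, 85.1 and 69.9 units.

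Ocln, the tight junction membrane protein occludin, lay between 1.1 and 32.2 units, and Marveld2 (tricellulin), its relative at tricellular contacts, between 1.1 and 29.9. Espn, the actin-bundling protein of the Sertoli ectoplasmic specialization, lay between 2.8 and 30.5 units. Among desmosome genes, the plaque protein desmoplakin (Dsp) lay between 4 and 42.6 units, the desmosomal cadherin Dsc2 between 1.6 and 35.1 and plakophilin 2 (Pkp2) between 1 and 65.5. Dsg2, another desmosomal cadherin, had 6 probe sets between 1 and 87.4 units, and its brightest one is described at the end. Signals of this size do not show that a transcript was absent, only that it was not measurable with this limit.

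**Figure D1:**
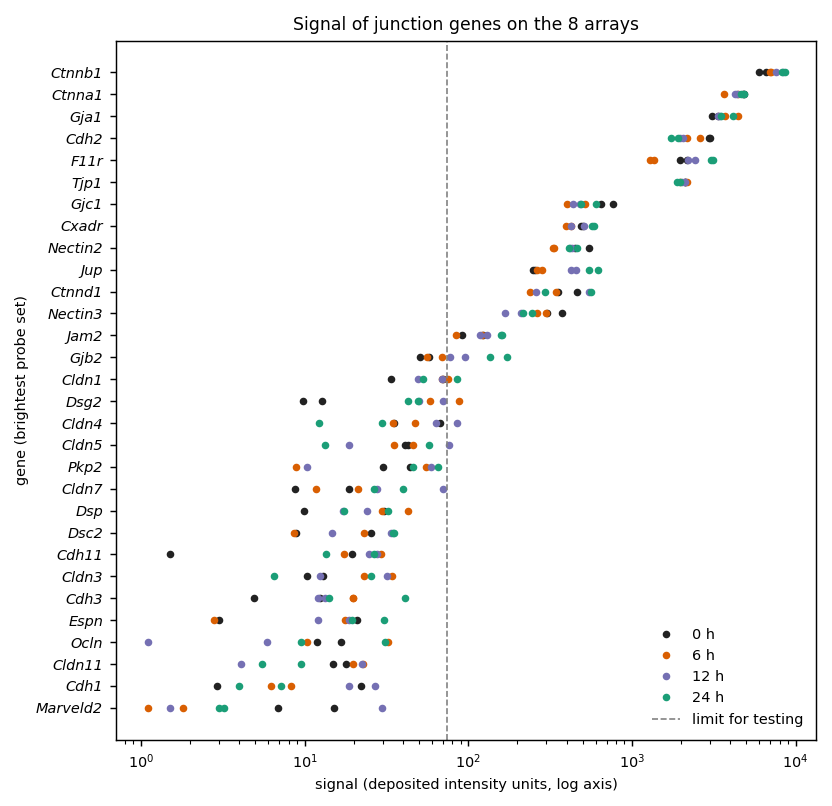
Signal of the brightest probe set of each of 30 junction genes on a log axis, in deposited intensity units, with 1 point per array coloured by hours at 39 °C. The dashed line marks the limit for testing (about 74.04 units), and 16 genes lie with their mean below it; positions of different genes are not comparable because each probe set has its own response.

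Of the 28 tested junction probe sets, 15 changed over the 4 times in limma's moderated F-test at adjusted p below 0.05, a share of 53.6% beside 40.1% of all 13576 tested probe sets. After 6 h 5 junction probe sets were lower and 0 higher than at 0 h, where 9.33% and 8.65% of all tested probe sets were called in these directions; limma's contrast gave 3 higher and 7 lower junction probe sets at an unadjusted p below 0.05, beside 15.9% and 16.8% of all. Both directions together this is 17.9% of the junction probe sets, beside 18.0% of all, which is close to the background. After 12 h 4 were higher and 5 lower (32.1%, beside 24.0% of all, 12.1% higher and 11.9% lower). After 24 h 7 were higher and 3 lower (35.7%, beside 32.9% of all, 17.1% higher and 15.8% lower). The array medians at 24 h lay 0.10 above those at 0 h on the log2 scale, and with each array set to the same median 5 junction probe sets were higher and 4 lower, beside 1721 and 2865 of all. The median log2 change over the junction probe sets was -0.04 at 6 h, 0.03 at 12 h and 0.23 at 24 h, and over all tested probe sets 0.0026, 0.0053 and 0.016. Probe sets of 1 gene share their transcript, so the 28 are not independent, and the 3 comparisons share the 0 h arrays.

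**Figure D2:**
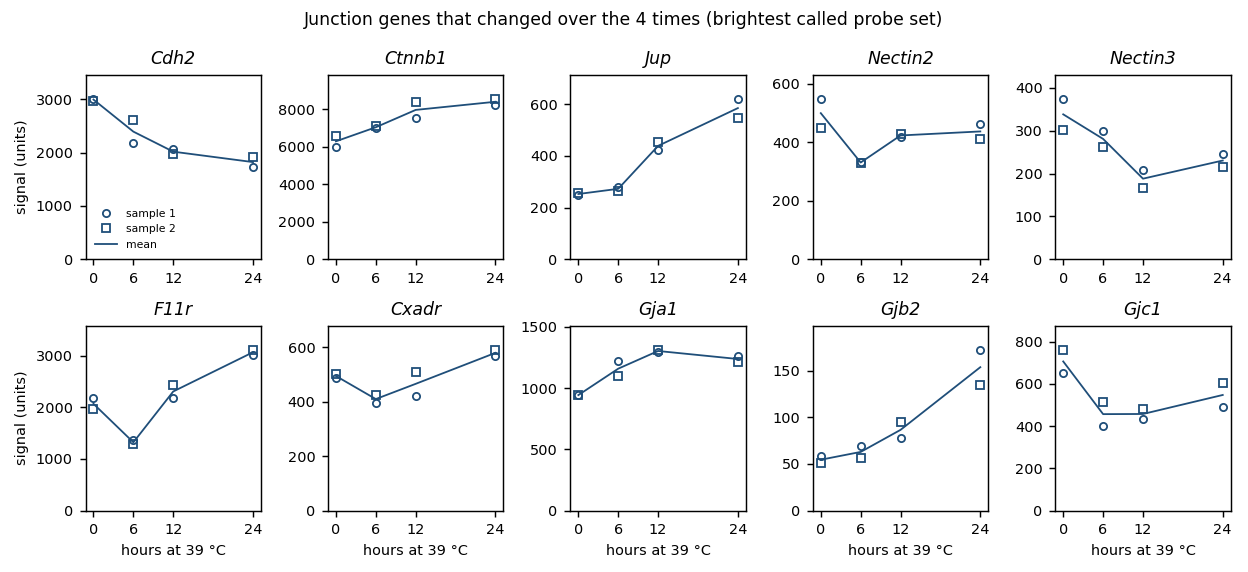
Signal of the 10 junction genes that changed over the 4 times, in deposited intensity units, against hours at 39 °C, with 1 marker per sample and a line through the means of 2 samples. The brightest called probe set of each gene is drawn, and each vertical axis starts at 0. Jup and Gjb2 are highest at 24 h, Cdh2 is lowest there, and F11r is lowest at 6 h.

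The 3 genes whose only tested probe set was higher at 24 h were F11r, Jup and Gjb2. They were picked by these calls, and whether they are controlled together was not tested. The 250 bases before their RefSeq transcription starts are printed as a description. They are from GRCm38.p6, at chr1:171437311-171437560 on the plus strand for F11r, chr11:100397791-100398040 on the minus strand for Jup and chr14:57104703-57104952 on the minus strand for Gjb2. Letters are in capitals where they match a heat shock repeat (GAANNTTC or TTCNNGAA), the inverted repeat that heat shock factors bind, or the E-box CACCTG read on either strand, which Snail and Zeb repressors bind.
F11r: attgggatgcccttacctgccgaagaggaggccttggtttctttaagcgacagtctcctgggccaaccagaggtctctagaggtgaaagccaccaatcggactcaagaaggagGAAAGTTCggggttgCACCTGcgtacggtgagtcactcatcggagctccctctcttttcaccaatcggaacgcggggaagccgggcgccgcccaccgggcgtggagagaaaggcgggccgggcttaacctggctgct
Jup: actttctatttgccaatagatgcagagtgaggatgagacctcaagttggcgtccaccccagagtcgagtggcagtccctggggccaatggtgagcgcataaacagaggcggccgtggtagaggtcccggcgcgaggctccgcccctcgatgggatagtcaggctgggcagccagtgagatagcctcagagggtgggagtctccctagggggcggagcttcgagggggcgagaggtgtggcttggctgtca
Gjb2: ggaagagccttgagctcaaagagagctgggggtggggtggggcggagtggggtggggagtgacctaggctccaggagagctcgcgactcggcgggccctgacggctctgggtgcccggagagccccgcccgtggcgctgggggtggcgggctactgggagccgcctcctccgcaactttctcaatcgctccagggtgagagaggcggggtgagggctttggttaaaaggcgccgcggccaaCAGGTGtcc
Both motifs were searched on both strands and did not overlap in these windows. The F11r window held 1 heat shock repeat, starting 137 bases before the start site, and 1 E-box, starting 122 bases before it. The Gjb2 window held 1 E-box, starting 9 bases before the start site, and the Jup window held neither motif. Of all 32851 promoter windows of this length, 12.8% held a heat shock repeat and 17.2% an E-box. Windows were at hand for 21 of the 32 genes, some of which had several. Of the 28 windows of these genes, 2 held a heat shock repeat and 6 an E-box. A match is a description of these letters and not a bound site.

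The adherens junction genes moved in different directions, with the cadherin down and its partner β-catenin up. Cdh2 had signals of 3010.8 and 2975.7 units at 0 h, 2173.8 and 2611.8 at 6 h, 2059.7 and 1975.1 at 12 h, and 1725.5 and 1918.6 at 24 h on its brightest probe set. Both samples at 12 h and at 24 h lay below all samples at 0 and 6 h. The log2 change (± SE) was -0.33 ± 0.11 at 6 h (adjusted p = 0.0594, called under 2 alternatives), and Cdh2 fell by 0.56 ± 0.11 at 12 h (adjusted p = 0.00355) and by 0.71 ± 0.11 at 24 h (adjusted p = 0.000552). The other Cdh2 probe set, 1449244_at, fell as well, by 0.69 ± 0.11 at 12 h (adjusted p = 0.00128) and 0.55 ± 0.11 at 24 h (adjusted p = 0.0032). The calls at 12 and 24 h held under all 18 alternative settings.

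Ctnnb1 encodes β-catenin, which binds the cadherin tail and also carries WNT signals. Its brightest probe set had 5985.1 and 6588.9 units at 0 h, 6982.3 and 7089.5 at 6 h, 7555.4 and 8364.7 at 12 h, and 8227.8 and 8560.3 at 24 h. No sample after 0 h was as low as the samples at 0 h. It rose by 0.42 ± 0.09 on the log2 scale at 24 h (adjusted p = 0.00577) and by 0.34 ± 0.09 at 12 h (adjusted p = 0.0227). At 24 h the call ended without 0 h sample 1 (adjusted p = 0.0821) and without 24 h sample 2 (adjusted p = 0.0552). At 12 h it ended without 0 h sample 1 (adjusted p = 0.204), 0 h sample 2 (0.0628) or 12 h sample 2 (0.152), without a filter (0.0565), after quantile normalization (0.0563) and without a variance trend (0.0697).

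A second Ctnnb1 probe set, 1430533_a_at, rose by 0.50 ± 0.11 at 12 h (adjusted p = 0.00647) and 0.42 ± 0.11 at 24 h (adjusted p = 0.0121). Its call at 12 h ended without 0 h sample 2 (adjusted p = 0.0723), and at 24 h without 0 h sample 2 (0.108), without 24 h sample 1 (0.0885) and with median-centred arrays (0.0585). The third, 1450008_a_at, had 0.30 ± 0.10 at 12 h and 0.29 ± 0.10 at 24 h (adjusted p = 0.0561 and 0.0551), which were called under 5 and 6 of the 18 alternatives. All 3 had positive log2 changes at 6, 12 and 24 h.

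Ctnna1, which encodes αE-catenin, the link from β-catenin to actin, had 4813 and 4758.9 units at 0 h, 3638.6 and 4459.8 at 6 h, 4252.2 and 4411.6 at 12 h, and 4814.6 and 4665.9 at 24 h on probe set 1448149_at. The samples at 24 h lay on either side of those at 0 h, and the log2 change at 24 h was -0.01 ± 0.10 (adjusted p = 0.935). Its other tested probe set had a log2 change of 0.18 ± 0.16 at 24 h (adjusted p = 0.431). Ctnnd1, which encodes p120-catenin, the stabiliser of cadherins at the membrane, spread widely between the samples of a time: 352.6 and 460.8 units at 0 h, 239.7 and 341.9 at 6 h, 260.6 and 550.1 at 12 h, and 294.5 and 559 at 24 h. Sample 2 was the higher one at all 4 times, and the log2 change at 24 h was 0.01 ± 0.33 (adjusted p = 0.983). The SE of this gene was the widest among the tested junction probe sets.

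The nectins, immunoglobulin-like adhesion molecules of adherens junctions, differed between probe sets. On the dimmer of 2 probe sets, 1417703_at, Nectin2 had 300.1 and 280.8 units at 0 h, 298.5 and 362.5 at 6 h, 362.9 and 419.3 at 12 h, and 505.8 and 544.3 at 24 h, with both samples at 24 h above all others. It rose by 0.81 ± 0.14 at 24 h on the log2 scale (adjusted p = 0.00125), a call that held under all 18 alternatives. The brighter probe set, 1424456_at, had 548.5 and 449.4 units at 0 h, 333.2 and 327.8 at 6 h, 417.5 and 428.2 at 12 h, and 461.7 and 411.4 at 24 h. There Nectin2 fell by 0.56 ± 0.13 at 6 h (adjusted p = 0.0154, but 0.159 without 0 h sample 1), and the log2 change at 24 h was -0.18 ± 0.13 (adjusted p = 0.339). Which transcripts each of these probe sets measures is not given in the sources used here, so no single direction could be stated for Nectin2.

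Nectin3 had 375 and 301.7 units at 0 h, 299.7 and 262.3 at 6 h, 209.4 and 167.1 at 12 h, and 246.3 and 214.9 at 24 h on its brightest probe set. All samples at 12 and 24 h lay below those at 0 and 6 h. It fell by 0.78 ± 0.17 at 12 h (adjusted p = 0.00716, but 0.0861 without 0 h sample 1 and 0.0552 without 12 h sample 2). At 24 h it fell by 0.51 ± 0.17 (adjusted p = 0.0394), and this call ended without 0 h sample 1 (0.274), 0 h sample 2 (0.0525), 24 h sample 1 (0.0799) or 24 h sample 2 (0.212) and without a filter (0.0884). The other tested Nectin3 probe set had log2 changes of -0.29 ± 0.18 at 12 h and -0.04 ± 0.18 at 24 h (adjusted p = 0.284 and 0.889).

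**Figure D3:**
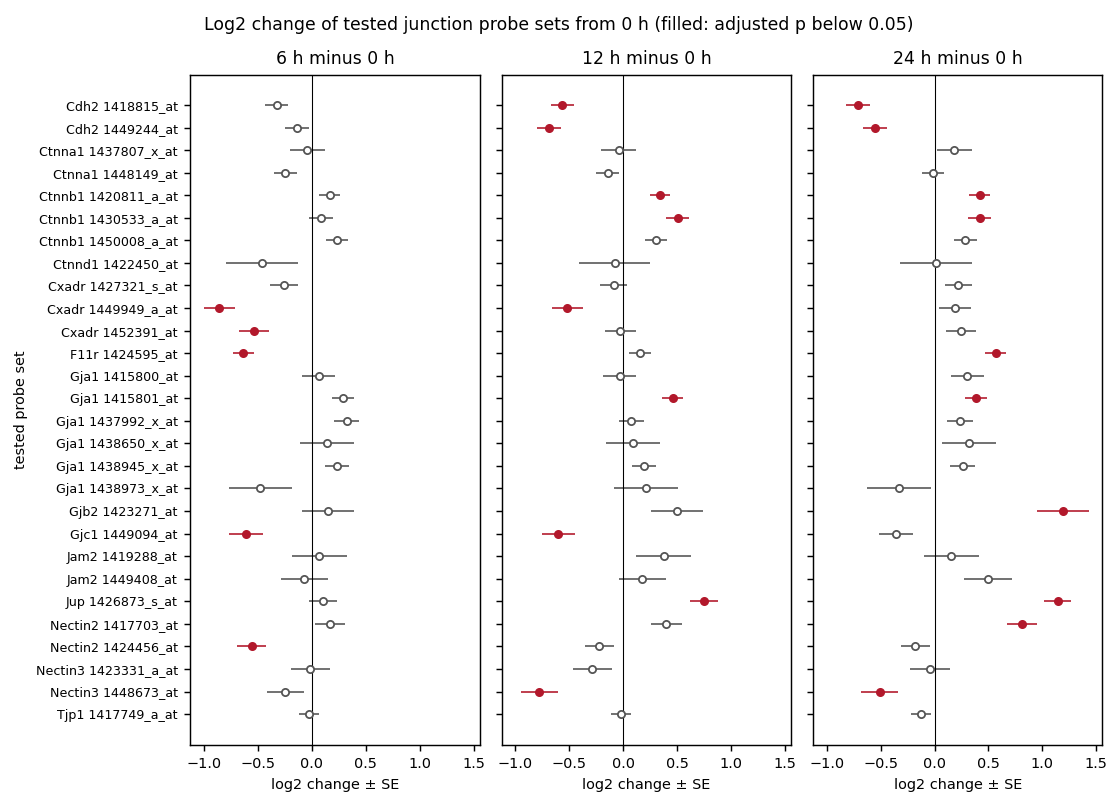
Log2 change from 0 h at 6, 12 and 24 h for the 28 tested junction probe sets, with bars for the SE of the fit; filled red points passed adjusted p below 0.05. At 6 h the 5 called probe sets lie left of 0, and at 24 h 7 of 10 lie right of it.

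Of the 4 tested tight junction genes, F11r and Cxadr changed, while Tjp1 and Jam2 did not pass the test. F11r encodes JAM-A, an immunoglobulin-like protein of tight junctions. It had 2176.9 and 1964.2 units at 0 h, 1361.4 and 1285.4 at 6 h, 2186.4 and 2433.1 at 12 h, and 3023.8 and 3117.5 at 24 h. The samples at 6 h were below and those at 24 h above the samples of every other time, and those at 12 h overlapped neither of them. F11r fell by 0.64 ± 0.10 at 6 h on the log2 scale (adjusted p = 0.00179), was at 0.16 ± 0.10 at 12 h (adjusted p = 0.287) and rose by 0.57 ± 0.10 at 24 h (adjusted p = 0.00141), and both calls held under all 18 alternatives. Between later times it was higher at 12 h than at 6 h by 0.79 ± 0.10 (adjusted p = 0.00156), also under all 18 alternatives. From 12 h the log2 change to 24 h was 0.41 ± 0.10 (adjusted p = 0.0339), and that call ended under 9 alternatives: without either sample of 0, 12 or 24 h, without a filter, with median-centred arrays and without a variance trend, with adjusted p between 0.0539 and 0.214. The other F11r probe set lay between 34.8 and 84.8 units and was not tested.

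Cxadr encodes the coxsackievirus and adenovirus receptor, an adhesion protein of tight junctions. On its brightest probe set it had 485.6 and 502.1 units at 0 h, 396 and 422.4 at 6 h, 421.7 and 508.4 at 12 h, and 567.7 and 589.9 at 24 h, and it changed over the 4 times (adjusted p = 0.0481) with no contrast against 0 h called. Probe set 1449949_a_at showed the largest differences, with 278.6 and 292.3 units at 0 h, 149.7 and 145.6 at 6 h, 198.2 and 187.5 at 12 h, and 348.1 and 309.3 at 24 h. Samples of the 4 times did not overlap on this probe set. There Cxadr fell by 0.86 ± 0.15 at 6 h (adjusted p = 0.00277), also under every alternative except the stricter filter, which left this probe set out. It fell by 0.52 ± 0.15 at 12 h (adjusted p = 0.0252), a call that ended without either 0 h or either 12 h sample and without a filter (adjusted p between 0.06 and 0.141).

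At 24 h the log2 change of this Cxadr probe set from 0 h was 0.19 ± 0.15 (adjusted p = 0.362), and from 12 h to 24 h it rose by 0.71 ± 0.15 (adjusted p = 0.0184), which ended without any 1 of the 4 samples compared (adjusted p between 0.0643 and 0.155). The third probe set, 1452391_at, fell by 0.54 ± 0.14 at 6 h (adjusted p = 0.0218). That call ended without 0 h sample 1 (0.158), 0 h sample 2 (0.0786) or 6 h sample 1 (0.104) and with only these times in the fit (0.0522). All 3 tested probe sets had their lowest mean at 6 h and their highest at 24 h.

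Tjp1, which encodes the scaffold ZO-1, had 2097.3 and 2113.4 units at 0 h, 1960.7 and 2173.9 at 6 h, 2027.4 and 2125.1 at 12 h, and 1969 and 1883.1 at 24 h. Its log2 changes were -0.03 ± 0.10 at 6 h, -0.02 ± 0.10 at 12 h and -0.13 ± 0.10 at 24 h (adjusted p = 0.875, 0.902 and 0.341). Jam2 encodes JAM-B, which Sertoli cells present to germ cells. It had 91.8 and 123.9 units at 0 h, 83.7 and 120.7 at 6 h, 117.5 and 130.3 at 12 h, and 160.6 and 158.9 at 24 h on its brightest probe set, with the 24 h samples above the rest, at a log2 change of 0.50 ± 0.22 (adjusted p = 0.111). Its second tested probe set had 0.15 ± 0.25 at 24 h (adjusted p = 0.685).

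Plakoglobin was the only tested member that belongs to desmosomes, where it links the cadherins to desmoplakin, and it is found in adherens junctions as well. Jup had 247.9 and 257.3 units at 0 h, 280.5 and 264.8 at 6 h, 423.8 and 453.6 at 12 h, and 621.2 and 548.1 at 24 h. Each later time lay above the earlier ones with no overlap. The log2 change was 0.10 ± 0.13 at 6 h (adjusted p = 0.627), and Jup rose by 0.75 ± 0.13 at 12 h (adjusted p = 0.00185) and by 1.14 ± 0.13 at 24 h (adjusted p = 6.95e-05). Both calls held under all 18 alternatives. It was higher at 12 h than at 6 h by 0.64 ± 0.13 (adjusted p = 0.014, but 0.0811 without 12 h sample 2 and 0.0735 with only these times in the fit), and the step from 12 h to 24 h was 0.40 ± 0.13 (adjusted p = 0.0918). The 15 probe sets of Dsp, Dsg2, Dsc2 and Pkp2 stayed between 1 and 87.4 units. This Jup probe set is of the kind that can also match related transcripts, by its _s_at ending, and no other Jup probe set was on the array. The brightest Cxadr probe set, 1427321_s_at, has this ending too.

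Of the 3 tested connexin genes, Gjb2 was higher at 24 h, Gjc1 was lower at 6 and 12 h, and Gja1 was higher at 12 and 24 h on 1 of its probe sets. Gjb2, connexin 26, had 58 and 50.9 units at 0 h, 69.2 and 56.4 at 6 h, 77.7 and 95.2 at 12 h, and 172.2 and 135 at 24 h, with the 24 h samples above all others. It rose by 1.19 ± 0.24 at 24 h on the log2 scale (adjusted p = 0.00304), after 0.15 ± 0.24 at 6 h (adjusted p = 0.718) and 0.50 ± 0.24 at 12 h (adjusted p = 0.155). Its mean at 0 h, 54.5 ± 5.02 units (SD, n = 2), was below the limit for testing and the gene passed it through its later samples. Its call in the main fit could thus be made only because it was high there. Its log2 change at 24 h ran from 0.71 to 1.49 and was called under every alternative except the stricter filter, which left the probe set out.

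Gjc1, connexin 45, had 651.4 and 761.4 units at 0 h, 398.9 and 514.6 at 6 h, 435.7 and 479.2 at 12 h, and 488.8 and 606.3 at 24 h. Both samples at 0 h lay above all others. It fell by 0.61 ± 0.16 at 6 h (adjusted p = 0.0196) and by 0.60 ± 0.16 at 12 h (adjusted p = 0.0165), and the log2 change at 24 h was -0.36 ± 0.16 (adjusted p = 0.101), which was called with median-centred arrays, with the replicate number as a block and with only these times in the fit (lowest adjusted p = 0.0303). At 6 h the call ended without 0 h sample 1 (0.0599), 0 h sample 2 (0.156) or 6 h sample 1 (0.1), and at 12 h without 0 h sample 2 (0.139) or 12 h sample 1 (0.0873).

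Gja1, connexin 43, had 6 tested probe sets, of which 1 passed. That one, 1415801_at, had 942.4 and 942.5 units at 0 h, 1219.9 and 1096 at 6 h, 1292.8 and 1311.7 at 12 h, and 1257.9 and 1215.8 at 24 h, with every later sample above 0 h. It rose by 0.46 ± 0.10 at 12 h (adjusted p = 0.00709) and 0.38 ± 0.10 at 24 h (adjusted p = 0.0123). At 12 h the call ended without 0 h sample 1 (0.0573) or 0 h sample 2 (0.0559). At 24 h it ended without 0 h sample 1 (0.0766), 0 h sample 2 (0.0733), 24 h sample 1 (0.0844) or 24 h sample 2 (0.0573) and with median-centred arrays (0.0644).

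The brightest Gja1 probe set, 1437992_x_at, had 3087.4 and 3378.2 units at 0 h, 3680 and 4436.2 at 6 h, 3338.6 and 3466.7 at 12 h, and 3491.1 and 4149.2 at 24 h, where the groups at 0 and 12 h overlapped. Its log2 changes were 0.32 ± 0.12 at 6 h and 0.24 ± 0.12 at 24 h (adjusted p = 0.0824 and 0.153). At 24 h the dimmest of the 6 probe sets, 1438973_x_at, had a log2 change of -0.33 ± 0.29. All the others had positive ones, from 0.24 to 0.38, of which only that of 1415801_at was called. Which transcripts each Gja1 probe set measures is not given in the sources used here.

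**Figure D4:**
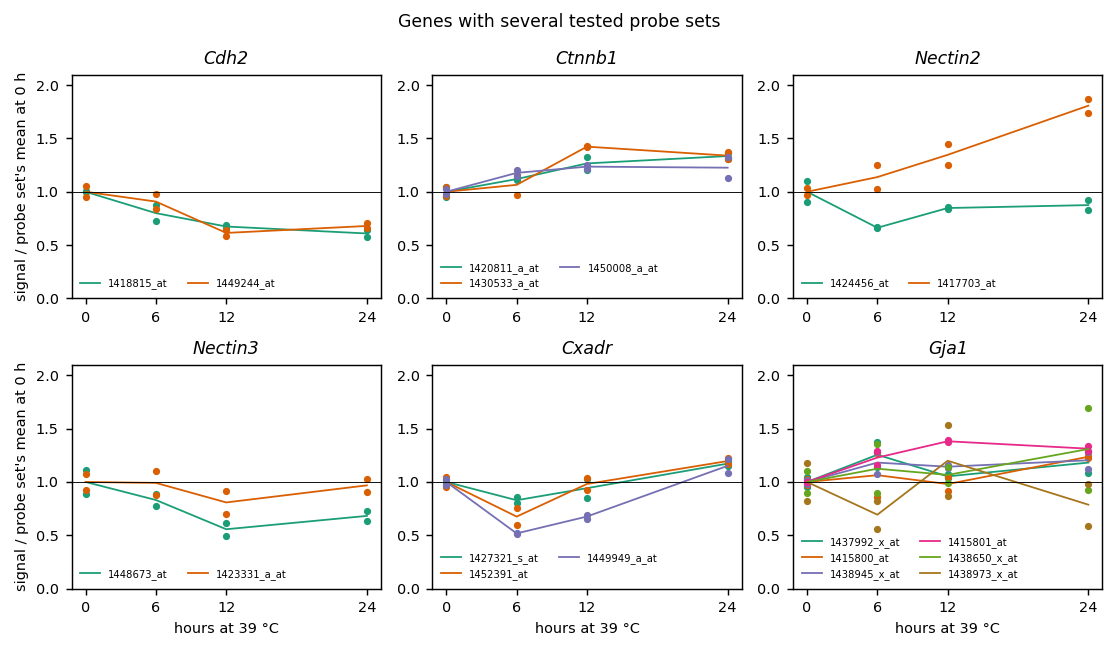
Signal divided by the probe set's own mean at 0 h, against hours at 39 °C, for 6 junction genes with several tested probe sets; points are arrays and lines join the means of 2 samples. The 2 Nectin2 probe sets part after 0 h, and the 3 Cxadr probe sets are lowest at 6 h. Of the 6 Gja1 probe sets, all but 1438973_x_at have a mean at 24 h above their 0 h level, and only 1415801_at was called.

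The steps between later times do not use the 0 h arrays for their means. Of the 28 junction probe sets 4 were higher and 1 lower at 12 h than at 6 h (17.9%), beside 4.61% higher and 3.71% lower (8.32% in all) of all tested probe sets. Besides F11r and Jup these were Cxadr on 1452391_at (0.51 ± 0.14, adjusted p = 0.0467), Ctnnb1 on 1430533_a_at (0.42 ± 0.11, adjusted p = 0.038) and, lower, Cdh2 on 1449244_at (-0.55 ± 0.11, adjusted p = 0.015). The Cdh2 step ended without 12 h sample 1 (0.0784), without 12 h sample 2 (0.0501) and with only these times in the fit (0.0754). The Cxadr and Ctnnb1 steps each ended under 11 of 18 alternatives: without a filter, with median-centred arrays, without a variance trend, with only these times in the fit and without any 1 of 7 samples, which were all but 6 h sample 2 for Cxadr (adjusted p between 0.0639 and 0.201) and all but 6 h sample 1 for Ctnnb1 (adjusted p between 0.0617 and 0.14). At 24 h against 12 h the called probe sets were those of F11r and Cxadr given above, 2 higher (7.14%) and 0 lower, beside 3.77% and 3.11% (6.88% in all) of all tested probe sets. There limma gave 6 higher and 0 lower at an unadjusted p below 0.05, beside 11.9% and 10.7% of all.

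Further junction genes, listed by class, were set beside these. Among 36 other tight junction and polarity genes, 31 had a probe set and 14 were tested. At 24 h 1 was higher and 3 were lower than at 0 h. Pard6g, a PAR6 polarity adaptor, rose (1.04 ± 0.12, adjusted p = 0.000108), while the angiomotin relative Amotl2 (-0.63 ± 0.12, adjusted p = 0.00251), Tjap1 (-0.52 ± 0.12, adjusted p = 0.00735) and the atypical protein kinase C gene Prkci (-0.26 ± 0.09, adjusted p = 0.0479) fell. A second Prkci probe set was at 0.02 ± 0.13 (adjusted p = 0.922). The median log2 change of the list at 24 h was 0.05, and that of all 7707 tested genes, each taken by its brightest probe set, 0.018, where 18.6% were higher and 16.6% lower. At 12 h 13.3% of these genes were higher and 12.0% lower, and at 6 h 9.13% and 9.38%.

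Of 24 other adherens junction genes 22 had a probe set and 8 were tested, and 2 were higher and 2 lower at 24 h (median log2 change 0.18). Ctnnal1, an α-catenin relative, had 250.4 and 229.9 units at 0 h, 287.4 and 220.2 at 6 h, 496.4 and 482.5 at 12 h, and 657.5 and 609.6 at 24 h, and rose by 1.32 ± 0.14 (adjusted p = 5.84e-05). Plekha7, which binds p120-catenin, had 5.3 and 56.2 units at 0 h, 71.5 and 93.8 at 6 h, 114.1 and 121.5 at 12 h, and 221.2 and 190.2 at 24 h, and was called higher at 24 h (adjusted p = 0.00114). Its 0 h signals were below the limit for testing, and the call in the main fit could be made only because the later samples were high. The actin linkers α-actinin 1 (Actn1, -0.52 ± 0.10, adjusted p = 0.00182) and vinculin (Vcl, -0.35 ± 0.10, adjusted p = 0.0223) fell on their brightest probe sets. Of 10 other desmosome genes 8 had a probe set and 2 were tested, Pkp4 and Ppl. Of 16 other gap junction genes 10 had a probe set and 2 were tested, Panx1 and Gjb5. None of these 4 passed at 24 h by limma; Ppl (periplakin) was higher at 12 h (0.65 ± 0.17, adjusted p = 0.0184) and Gjb5 (connexin 31.1) at 6 h (0.79 ± 0.25, adjusted p = 0.0478), both named here after their values were seen.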

How the data were processed

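Total RNA of TTE3 cells was measured on Affymetrix 430A arrays, per the labels' protocols. The authors deposited 1 linear intensity per probe set; which software made it is not given in the sources used here. With the outer 2% of values trimmed from both ends, each array's mean lay between 500.18 and 500.2, as global scaling to 1 target gives, so a change in total mRNA per cell is not visible. Median signals ran from 138 to 154.3 units, the 2 arrays of a time correlated across tested probe sets with r between 0.9815 and 0.9905, and the 3' to 5' ratio of actin lay between 1.03 and 1.13; the number of arrays, 2 per time, limits the precision. The 20380 probe sets with 1 symbol in the platform annotation were named, with symbols updated through RefSeq gene identifiers (GRCm38.p6, names only), 691 had several symbols and 1555 none. Samples were grouped by the hours in their titles; whether they came from separate cultures is not in the labels, and p-values thus cover only the spread among these 8 samples, possibly technical.

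Values were log2(intensity + 21.9), the offset being the 20th percentile of all values, which shrinks the log2 changes of dim genes; folds are computed from these changes. The 40th percentile of mean log2 values (6.58) was the lower limit for testing, and 13576 probe sets met it. All 8 arrays entered 1 limma fit (limma 3.58.1, R 4.3.3; 4 residual and 7.22 prior degrees of freedom, variance trend), with the F-test over the 4 times and 5 contrasts, 2-sided, adjusted by Benjamini-Hochberg over the 13576 probe sets and called below 0.05. Values after ± are SEs of the fit unless SD is named. The fit was tested on simulated data. Every listed gene is named, with each array's value for those that changed; of the further junction genes, up to 4 per list with the largest called change at 24 h are named. The 18 alternatives were other offsets (50 and 100 units) or a floor of 16 units, no filter or a stricter one (60th percentile), quantile normalization, median-centred arrays, no variance trend, only the compared times, the replicate number as a block, and each array left out. Members and lists were chosen with earlier results of these data known. Promoter sequences are from RefSeq (GRCm38.p6).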

Additional observations from a re-analysis of the deposited data

How the results depend on the processing

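Of 31 called changes of single junction probe sets, 552 values were computed under the alternatives: 471 stayed called in the same direction, 81 were no longer called and 0 changed sign. The stricter filter gave no value for Gjb2, for Nectin3 on 1448673_at or for Cxadr on 1449949_a_at. The array medians rose relative to 0 h by 0.02 at 6 h, 0.06 at 12 h and 0.10 at 24 h on the log2 scale, and centring arrays on them removes that shift. Over all probe sets this centring gave 1317 higher and 1943 lower at 12 h, against 1646 and 1611 without it, and 373 higher and 510 lower for 24 against 12 h, against 512 and 422 without it. The count of called junction probe sets stayed within 1.5 times for the F-test and each comparison with 0 h under every alternative that kept all 8 arrays. Between 12 and 6 h it was 5, and 3 without a filter, with median-centred arrays or without a variance trend, and 1 with only these times in the fit; the counts over all probe sets were 1130, and 644 without a filter, 606 without a variance trend and 240 with only these times. Between 24 and 12 h it was 2, and 1 with the stricter filter, without any filter, with median-centred arrays or without a variance trend; over all probe sets 934, and 529 without a filter and 369 without a variance trend. With 1 array left out, junction counts ran from 9 to 15 (F-test), 2 to 8 (6 h), 4 to 11 (12 h), 7 to 13 (24 h), 1 to 4 (12 against 6 h) and 0 to 3 (24 against 12 h, where limma called 3 to 8 at an unadjusted p below 0.05), and counts over all probe sets from 3303 to 6608, 836 to 3005, 1523 to 4148, 2595 to 5191, 330 to 1552 and 84 to 1645. Without 0 h sample 1 the junction count was 9 in the F-test, 2 at 6 h and 5 at 12 h, and without 0 h sample 2 it was 4 at 12 h and 3 at 6 h, while without 6 h sample 2 it was 8 at 6 h; at 24 h it was 7 without either 0 h sample and without 24 h sample 2. Conversely, 13 uncalled changes of junction probe sets tested in the main fit were called under 1 to 6 alternatives each. An alternative with fewer arrays has fewer degrees of freedom; beyond that the cause was not tested. The 2 samples of a time share numbers with those of other times, but no label gives the number a meaning, and the deviations of same-numbered arrays correlated with r between 0.05 and 0.18. With the replicate block the junction counts were 16 in the F-test, 7 at 6 h, 10 at 12 h, 11 at 24 h, 6 for 12 against 6 h and 2 for 24 against 12 h. No count over all probe sets is set beside these, nor beside the junction counts for single named samples left out. They therefore show how the calls depend on the setting and are no result about junction genes. Signal over background limits the 16 dim genes, which were not tested in the main fit. Without a filter only Dsg2 among them was called, on probe set 1460380_at, whose 0 h signals lie below the offset. Its adjusted p was 0.0208 in limma's F-test, and 0.0163, 0.0206 and 0.0389 in the contrasts of 6, 12 and 24 h with 0 h.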

Other observations

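The brightest Dsg2 probe set, 1460380_at, was below the limit for testing and had 12.8 and 9.8 units at 0 h, 87.4 and 58.1 at 6 h, 49.8 and 70.6 at 12 h, and 42.9 and 49.5 at 24 h, with every later sample above 0 h. The 0 h signals lie below the offset of 21.9 units, so no size of a difference is given. The other 5 Dsg2 probe sets stayed between 1 and 47.6 units. This probe set was named after its values were seen.

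Genes of transcription factors known to repress cadherin and claudin genes were followed as a list, of which 7 of 9 were tested. At 6 h Twist1 and Twist2 were higher (0.74 ± 0.21, adjusted p = 0.0312, and 0.70 ± 0.16, adjusted p = 0.0117), and Zeb1 and Tcf3 lower (-0.81 ± 0.18, adjusted p = 0.0107, and -0.43 ± 0.14, adjusted p = 0.0498). At 12 h Tcf3, Zeb2 and Snai2 were lower (-0.49 ± 0.14, -0.53 ± 0.13 and -0.72 ± 0.23, adjusted p = 0.0224, 0.0122 and 0.0407). At 24 h Tcf4 was higher (0.49 ± 0.11, adjusted p = 0.00705) and Tcf3 lower (-0.58 ± 0.14, adjusted p = 0.00699). Zeb1 had 182.4 and 248.6 units at 0 h, 112 and 113 at 6 h, 172.4 and 190.6 at 12 h, and 246.6 and 251 at 24 h, with both 6 h samples below all others. These are values of separate genes; no relation between them was tested.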
